A study of Mus musculus with 10 samples.

Results

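The genes described here make, sense, move and export cholesterol. The set held 32 genes listed by symbol, chosen with earlier results of these data known, and each symbol matched 1 of the 55573 Ensembl genes in the count table. Of the 32, 18 encode enzymes of the mevalonate and sterol pathway, 5 control the sterol-sensing transcription factors SREBP, and 9 belong to the oxysterol receptors LXR, efflux, lipoprotein receptor turnover, sterol trafficking or storage. All but 1 had enough counts to be tested. The exception was Nr1h3.

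RNA was sequenced from bone marrow B cells of mice, described by the submitters as B-cell progenitors. All 10 libraries share the genotype PAX5-ELN H2B-GFP, doxycycline as the treatment and 35 days as the time, and they differ in the level of GFP. PAX5-ELN joins the B-lineage transcription factor PAX5 to elastin and is known from B-cell leukemia, and H2B-GFP is a fluorescent histone whose signal is diluted when cells divide. Cells high in GFP are labelled quiescent (GFP high, 5 libraries) and cells low in GFP are labelled proliferating (GFP low, 5 libraries). Both groups carry the fusion and both received doxycycline, so the comparison is between cells of the same genotype and treatment. The promoter that drives each transgene, the age of the mice and the schedule of doxycycline are not given in the sources used here, nor is it stated that libraries of a group stem from different animals. The p-values therefore describe the spread between these libraries, and the part of it that is technical is not known. Y-linked totals, given below, differed widely within a group, from 9 to 2654 in GFP high.

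As background, animal cells build cholesterol from acetyl-CoA, first to mevalonate and isoprenoid units, then to squalene, and finally through a series of sterol intermediates. When membrane cholesterol in the endoplasmic reticulum is low, the escort protein SCAP carries SREBP to the Golgi, where it is cut and released as a transcription factor for the pathway's enzymes, and when sterol is high INSIG proteins hold SCAP back. Excess sterol acts in the opposite sense through oxysterols and LXR, which switch on the exporters ABCA1 and ABCG1 and the ubiquitin ligase MYLIP, which removes lipoprotein receptors from the cell surface. Dividing lymphocytes need sterol for new membrane, and activated lymphocytes are known to raise synthesis and restrain LXR.

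Promoter sequence was searched for letters that the enzyme genes have in common around their starts. RefSeq promoter windows on GRCm38.p6, each from 250 bases before to 50 bases after an annotated start, were matched by symbol for 26 members, 15 of them synthesis enzymes. No window was matched for Fdps, Fdft1, Sqle, Abcg1, Stard4 and Npc1. Letters were searched on both strands of each whole window, including the 50 bases after the start. CCAAT, the letters bound by the factor NF-Y, were present in 14 of the 15 synthesis genes (93.3%), in 7 of the other 11 matched members (63.6%) and in 37.4% of all 32851 windows. CACNCCAC, a core of the sterol element bound by SREBP, was present in Acat2, Hmgcs1 and Insig1 (11.5% of matched members) against 6.24% of all windows. TCACNCCAC, which contains those letters, was found in Hmgcs1 alone (3.85%, against 1.24% of windows). CACGTG was found in 6 matched members (23.1%, against 7.15%). The consensus direct repeat read by LXR (DR4, exact letters) was found in 0 members and in 5 of all 32851 windows (0.0152%). At so low a rate, its absence from 26 members says nothing about them. A gene with more than 1 annotated start counted once if any of its windows held the letters, which favours genes over single windows. The 32851 windows were not limited to genes tested here. A match is a description of these windows and not of binding.

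The stretches below carry those letters in enzyme genes that were lower in GFP high, and in Hmgcs1, shown for its combination of both motifs. Acat2 was shown by the naming rule, and the other 4 were chosen after their values were seen. Capitals mark CACNCCAC and CCAAT as read on either strand, so GTGGCGTG and ATTGG are the reverse complements. All are printed 5′ to 3′ along the gene's own strand in the build GRCm38.p6 and end before a RefSeq start, which can lie inside the wider gene model.
Acat2 (chr17:12960751-12960926, minus strand): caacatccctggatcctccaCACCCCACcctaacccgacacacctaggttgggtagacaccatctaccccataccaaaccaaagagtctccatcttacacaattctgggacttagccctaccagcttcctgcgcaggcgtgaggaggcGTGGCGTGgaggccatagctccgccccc
Hmgcs1 (chr13:119690101-119690330, plus strand): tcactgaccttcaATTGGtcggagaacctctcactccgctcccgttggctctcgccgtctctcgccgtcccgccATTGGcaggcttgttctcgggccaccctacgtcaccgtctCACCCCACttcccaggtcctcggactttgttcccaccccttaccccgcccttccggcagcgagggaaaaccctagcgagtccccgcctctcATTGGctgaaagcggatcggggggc
Pmvk (chr3:89454385-89454429, plus strand): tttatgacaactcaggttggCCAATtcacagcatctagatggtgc
Idi1 (chr13:8885541-8885605, plus strand): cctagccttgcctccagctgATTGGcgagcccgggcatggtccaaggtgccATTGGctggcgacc
Cyp51 (chr5:4104702-4104746, minus strand): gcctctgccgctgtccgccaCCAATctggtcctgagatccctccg
The Acat2 stretch held the sterol core letters at 2 places and no CCAAT, and it was the only matched enzyme without CCAAT. Hmgcs1 held the sterol core once, 136 bases before its start, with CCAAT letters on its reverse strand at 3 places, 237, 176 and 45 bases before the start. Idi1 held them at 45 and 14 bases, and Pmvk and Cyp51 once each, 136 and 29 bases before the start.

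Total counts per library were 11347097 to 13838769 for GFP high and 10640894 to 14858520 for GFP low (p = 0.365 by a two-sided exact permutation test with 5 libraries a group). Over all genes, libraries numbered 4 and 5 stood apart from those numbered 1 to 3 in both groups. Unscaled Y-linked totals, by library number, were 831, 1743, 9, 1704 and 2654 for GFP high. For GFP low they were 309, 501, 2, 696 and 2376, so both libraries numbered 3 were nearly without Y-linked reads. At each number the GFP high total was the larger one, and the cause of this difference was not tested. Libraries with the same number deviated together, so values from a fit with the replicate number as a block are given where they change a call. Levels are given as CPM, the usual count per unit of library total after TMM scaling (cpm of edgeR). Of 10 B-lineage markers, all tested, 3 rose and 0 fell in GFP high (8 and 1 with the block), and they summed to 12964 to 14600 CPM there and 10605 to 11735 CPM in GFP low, with Igll1 the most abundant. Of 8 T and NK cell markers 0 had enough counts to be tested, Cd8a and Gzma were at 0 in all libraries, and the list, led by Trac, summed to at most 1.25 CPM in any library. Neutrophil markers, led by S100a9, summed to 2.81 to 12.6 CPM over all libraries. Of 6 plasma cell markers 5 were tested, 2 were higher and 1 lower (4 and 1 with the block). Their sums, 622 to 1095 CPM in GFP high against 509 to 805 CPM, were led by Irf4, while Jchain, which joins secreted antibody chains and was named after its values were seen, fell (0.629 ± 0.408 against 56.7 ± 23.4 CPM, log2 -6.48 ± 0.44, edgeR adjusted p = 6.18e-06). Of 6 stroma and endothelium markers 3 were tested, 1 was higher and 0 lower, and most of their sum was Pecam1, which B cells can also express (262 ± 18.9 against 150 ± 14.2 CPM).

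The question was how the levels of cholesterol genes compare between the quiescent and the proliferating label. In GFP high, 6 of the 31 tested genes were lower (Acat2, Pmvk, Idi1, Sqle, Cyp51 and Stard4) and 3 were higher (Scap, Abca1 and Abcg1), with a Benjamini-Hochberg adjusted p under 0.05 by edgeR's quasi-likelihood test. The other 22 did not pass. The 9 called genes made 29.0% of those tested, against 27.5% of all 12772 genes, so the count of calls is near the background. Among the 18 synthesis enzymes 5 were lower (27.8%) and 0 higher, against 15.4% and 12.0% of all genes. Among the 8 tested genes of LXR, efflux, trafficking and storage 2 were higher (25.0%) and 1 lower (12.5%). Median log2 fold changes were -0.29 for the enzymes and 0.35 for these 8 genes, against 0.03 over all genes tested. Because these are bulk samples, fewer cells with a transcript and less transcript per cell cannot be told apart.

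With the replicate block, 14 of 31 members passed, 5 higher and 9 lower (45.2%), against 41.8% of all genes (20.7% higher and 21.0% lower). The enzymes then counted 8 lower and 0 higher, and LXR, efflux, trafficking and storage 4 higher and 1 lower. No enzyme passed in the upward direction in any fit. The levels of the GFP high and GFP low libraries did not overlap for 6 members lower in GFP high, 5 of them enzymes, against 12.6% of all genes, and for 1 higher, Scap, against 7.92%. Without both libraries numbered 3 the count of higher members was 1 (Scap).

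**Figure D1:**
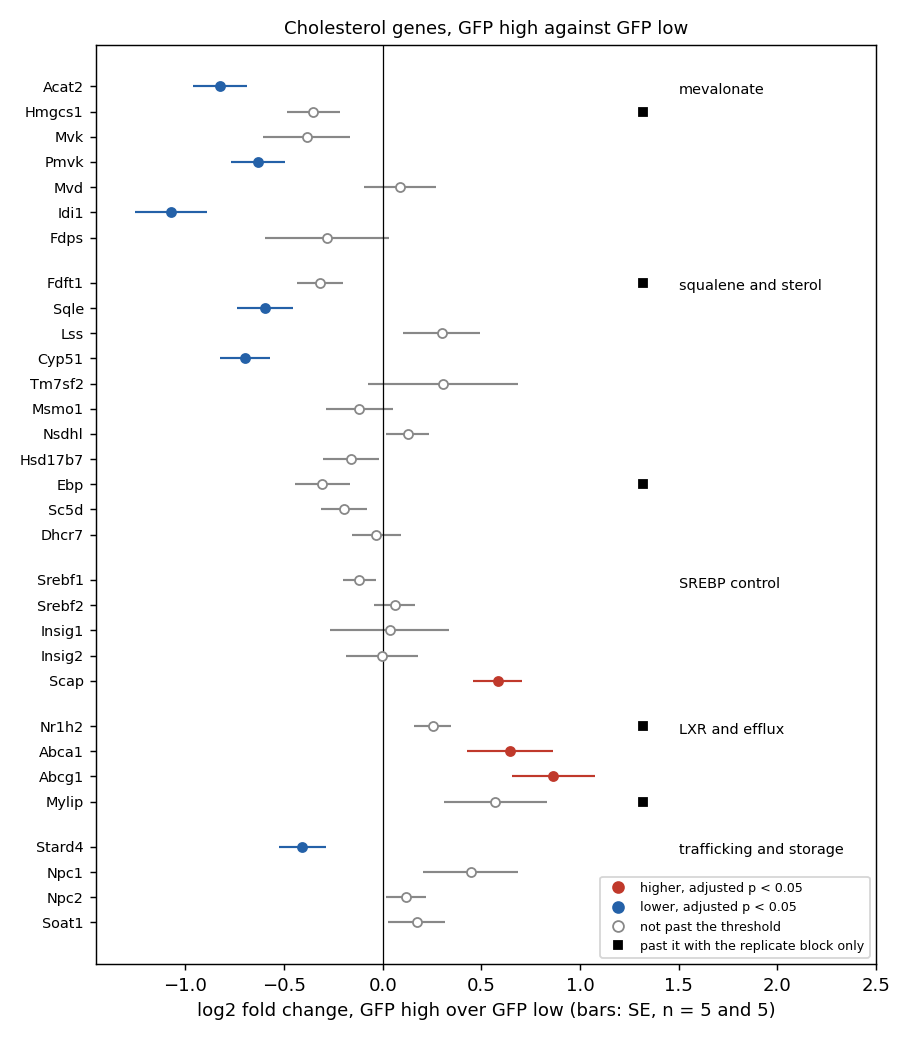
Log2 fold change of GFP high over GFP low for the 31 tested genes, ordered by step (points, with bars for the SE, n = 5 and 5). The SE was derived from the F statistic of the edgeR test. Filled blue points are the 6 lower genes and filled red points the 3 higher genes. Black squares mark the 5 genes that passed with the replicate block but not without it. Points left of 0 are most frequent among the enzymes at the top, where 14 of 18 lie below 0. Of all 12772 genes tested, 6021 lay below 0.

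Of the 7 mevalonate enzymes, 3 were lower in GFP high (Acat2, Pmvk and Idi1), 0 were higher and 4 did not pass, against 15.4% of all genes lower, with a median log2 fold change of -0.38. Acat2 (ENSMUSG00000023832, mm10 chromosome 17, 12942890 to 12960747), which joins acetyl-CoA units at the start of the pathway, had 25.4, 15.8, 18.7, 17.5 and 19.3 CPM in GFP high libraries 1 to 5 and 34.6, 37.0, 36.8, 32.9 and 29.9 CPM in GFP low libraries 1 to 5. Each GFP high library lay below each GFP low library. The mean was 19.3 ± 3.66 against 34.3 ± 2.95 CPM (SD, n = 5), 1.77-fold lower in GFP high (log2 fold change -0.82 ± 0.14 SE, edgeR adjusted p = 0.000911). Hmgcs1, the synthase that makes HMG-CoA, had 38.6, 35.5, 26.2, 42.3 and 36.4 CPM in GFP high and 42.5, 47.5, 39.6, 44.7 and 53.8 CPM in GFP low. Its groups overlapped, although the GFP high library was the lower one in 5 of 5 pairs of equal number. The log2 fold change was -0.35 ± 0.13 (edgeR adjusted p = 0.0688), while the block gave -0.36 (adjusted p = 0.0134). Leaving out GFP high library 4 also made it pass (-0.41, adjusted p = 0.0466; 0.0134 to 0.154 over 17 alternatives).

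The kinases and the isomerase of the same branch followed. Mvk, mevalonate kinase, had 5.12 to 9.26 CPM in GFP high and 6.50 to 12.4 CPM in GFP low and did not pass (-0.38 ± 0.22, edgeR adjusted p = 0.220). Pmvk (ENSMUSG00000027952, chromosome 3, 89454541 to 89469013), which adds the next phosphate, had 11.2, 10.4, 11.2, 10.7 and 10.04 CPM in GFP high and 16.9, 17.95, 16.9, 13.3 and 17.9 CPM in GFP low. The GFP high libraries lay within about 1 CPM of each other and all below GFP low, where library 4 was the lowest. The fold change was 1.55 downward (log2 -0.63 ± 0.14, edgeR adjusted p = 0.00447), and with libraries 4 and 5 alone it did not pass (-0.60, adjusted p = 0.0978; 0.000305 to 0.0978 over 17 alternatives). Mvd, the decarboxylase that yields isopentenyl diphosphate, was nearly level, at 6.92 ± 0.939 against 6.50 ± 0.572 CPM.

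Idi1 (ENSMUSG00000058258, chromosome 13, 8885501 to 8892451) had the lowest log2 fold change of the 31 genes. It encodes the isomerase that turns isopentenyl diphosphate into its reactive partner, and it had 5.39, 5.14, 3.93, 4.36 and 5.11 CPM in GFP high and 8.61, 9.61, 9.98, 10.1 and 12.1 CPM in GFP low. The groups were well separated, from 56 to 74 counts against 103 to 179. The level was 2.10-fold lower (log2 -1.07 ± 0.18, edgeR adjusted p = 0.00109) and passed in all 17 alternatives. Fdps, farnesyl diphosphate synthase, rested on 20 to 54 counts per library, shares 26.7% of its exon bases with the overlapping gene model Gm43738 on the same strand, and did not pass (-0.28 ± 0.32, edgeR adjusted p = 0.543). The sources used here do not say how reads of overlapping genes were assigned. Cyp51, Srebf1, Npc1 and Tm7sf2 share smaller stretches of exon with another tested gene (3.76%, 1.93%, 4.52% and 12.1% of their exon bases). Scap, Hmgcs1 and Idi1 share 13.2%, 12.1% and 9.22% of theirs with gene models on the opposite strand that were not tested. The sign for Fdps turned in libraries 1 to 3 alone (0.12).

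Among the squalene and sterol enzymes, 2 of 11 were lower (18.2%, against 15.4% of all genes) and 0 higher. Sqle (ENSMUSG00000022351, chromosome 15, 59315077 to 59331192), the squalene epoxidase, had 46.8, 39.6, 26.5, 37.1 and 37.7 CPM in GFP high and 55.4, 45.9, 65.0, 58.6 and 58.7 CPM in GFP low. Its groups touched at GFP high library 1 and GFP low library 2, and every equal-numbered pair was lower in GFP high. It was 1.51-fold lower (log2 -0.60 ± 0.14, edgeR adjusted p = 0.00836), and libraries 1 to 3 alone did not pass (-0.53, adjusted p = 0.0874; 0.00103 to 0.0874 over 17 alternatives). Cyp51 (ENSMUSG00000001467, chromosome 5, 4081145 to 4104746), the cytochrome P450 that demethylates lanosterol, had 33.7, 46.9, 35.1, 43.9 and 47.1 CPM in GFP high and 54.5, 67.1, 65.2, 74.1 and 74.1 CPM in GFP low. No library of one group reached the other, and the level was 1.62-fold lower (log2 -0.70 ± 0.13, edgeR adjusted p = 0.00149; 1.17e-05 to 0.0130 over 17 alternatives).

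A pair of genes in this branch, Fdft1 and Ebp, passed with the block but not without it. Fdft1, squalene synthase, which commits isoprenoids to sterol, had 33.7, 30.9, 27.7, 35.0 and 29.4 CPM in GFP high and 48.8, 37.0, 35.5, 37.7 and 36.0 CPM in GFP low. The groups did not overlap, and GFP low library 1 stood well above the rest. Its log2 fold change was -0.32 ± 0.12 (edgeR adjusted p = 0.0644; with the block -0.31, adjusted p = 0.0198; 0.0198 to 0.369 over 17 alternatives), and 18.3% of its exon bases lie opposite Ctsb, a more abundant gene that was higher in GFP high (log2 0.36, adjusted p = 0.0193). Ebp, the sterol isomerase, on chromosome X, had 49.1, 45.3, 38.0, 52.1 and 68.5 CPM in GFP high and 53.6, 67.4, 61.4, 66.8 and 63.4 CPM in GFP low. GFP high library 5 was the highest of all 10, and the other 4 GFP high libraries lay below every GFP low library. Its log2 fold change was -0.31 ± 0.14 (edgeR adjusted p = 0.124), against -0.32 with the block (adjusted p = 0.0321). It also passed when GFP high library 5 was left out (-0.43, adjusted p = 0.0171) and in libraries 1 to 3 alone (-0.44, adjusted p = 0.0428), with 0.0171 to 0.559 over 17 alternatives.

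The remaining sterol enzymes did not pass, with or without the block. Dhcr7, the reductase of the last step, had 30.4 to 37.7 CPM in GFP high and 28.5 to 39.9 CPM in GFP low (-0.03 ± 0.13), and Msmo1, a methylsterol oxidase acting after Cyp51, had 28.1 to 48.1 and 34.0 to 52.4 CPM (-0.12 ± 0.17). Hsd17b7, a ketoreductase, and Sc5d, a desaturase, had log2 fold changes of -0.16 ± 0.14 and -0.20 ± 0.11. Values above 0 were seen for Lss, lanosterol synthase (0.30 ± 0.19, 9.18 to 14.1 against 6.49 to 10.7 CPM), for Nsdhl, a sterol dehydrogenase (0.13 ± 0.11), and for Tm7sf2, a sterol reductase (0.31 ± 0.38). Tm7sf2 rested on 12 to 54 counts per library. Its sign turned in libraries 1 to 3 alone (-0.17), and in libraries 4 and 5 alone the value was 1.35. Per kilobase of exon, Ebp had the highest level of the 18 enzymes (21.9 CPM per kb in GFP high and 27.1 in GFP low), and Fdps and Tm7sf2 the lowest (0.544 and 0.667 in GFP high).

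**Figure D2:**
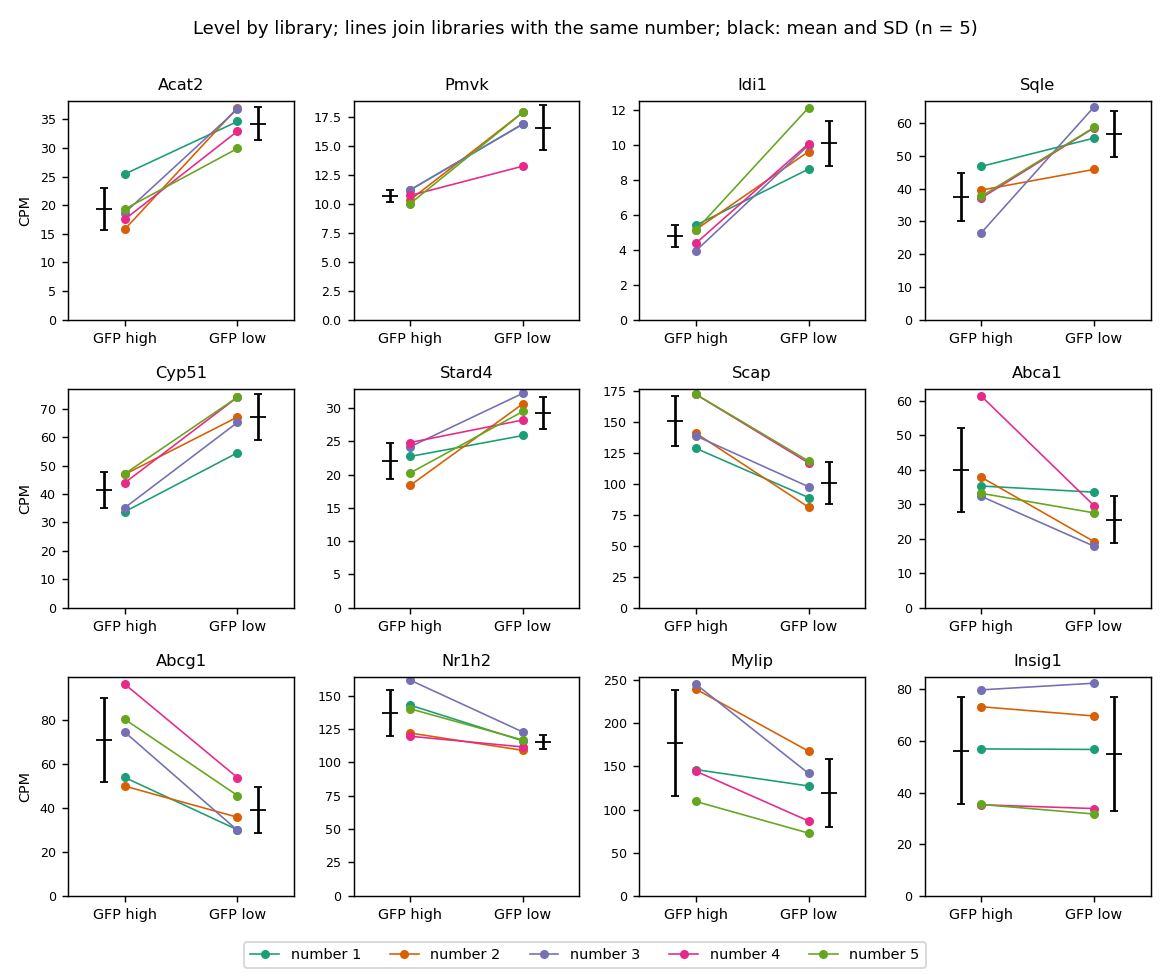
CPM by library for 12 genes, with lines joining GFP high and GFP low libraries of the same number and black marks for the mean and SD (n = 5); each panel's axis starts at 0. All 5 lines rise toward GFP low for Acat2, Pmvk, Idi1, Sqle, Cyp51 and Stard4 and fall for Scap, Abca1, Abcg1, Nr1h2 and Mylip, while Insig1 lines are nearly flat and differ by number.

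The transcription factor genes themselves were nearly level while their escort was higher. Srebf2, which encodes the SREBP best known for sterol genes, had 128 to 167 CPM in GFP high and 112 to 156 CPM in GFP low (log2 0.06 ± 0.10, edgeR adjusted p = 0.704). Srebf1, whose product is best known for fatty acid genes, had 56.7 to 71.1 and 65.7 to 77.6 CPM (-0.12 ± 0.09, adjusted p = 0.336). Scap (ENSMUSG00000032485, chromosome 9, 110333288 to 110384950), the escort that carries SREBP to the Golgi, had 129, 141, 139, 172 and 172 CPM in GFP high and 89.0, 81.2, 97.7, 117 and 118 CPM in GFP low. Each GFP high library was above each GFP low library, and Scap was the only member above 0 whose groups did not overlap. It was 1.497-fold higher (log2 0.58 ± 0.13, edgeR adjusted p = 0.00476; 2.02e-05 to 0.0239 over 17 alternatives).

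The retention factors differed between libraries more than between groups. Insig1, itself a well-known SREBP target, had 56.9, 73.3, 79.8, 35.3 and 35.4 CPM in GFP high and 56.7, 69.7, 82.4, 33.8 and 31.7 CPM in GFP low. Libraries of equal number had nearly the same level across the sort, and libraries 4 and 5 were the lowest in both groups. Its log2 fold change was 0.04 ± 0.30 (edgeR adjusted p = 0.944; with the block 0.05, adjusted p = 0.642; 0.609 to 0.948 over 17 alternatives). Insig2 had 20.5 to 27.5 CPM in GFP high and 16.6 to 32.9 CPM in GFP low, and its mean was 24.9 against 25.0 CPM. Per kilobase of exon Insig1 exceeded Insig2, at 18.2 against 7.18 CPM per kb in GFP high.

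**Figure D3:**
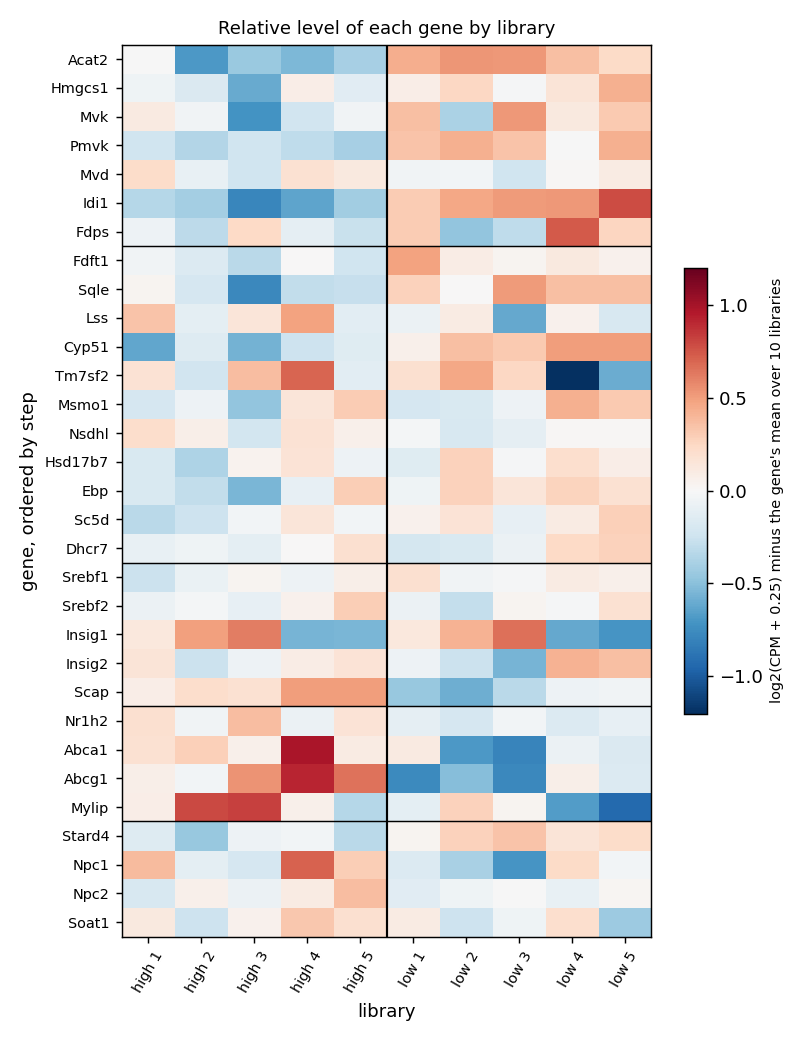
Each gene's log2(CPM + 0.25) minus its mean over the 10 libraries (colour; red above and blue below the mean, limited to 1.2 on either side), with genes in rows by step and libraries in columns, GFP high left of the line. The rows of Acat2, Pmvk, Idi1, Sqle and Cyp51 are mostly blue left of the line and mostly red right of it. Other enzyme rows are weaker, mixed or opposite. The Scap row turns from red to blue, the Abca1 and Abcg1 rows do so for most libraries, and Insig1 follows the library number on both sides.

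In the LXR arm 2 of the 4 tested genes were higher in GFP high, 0 were lower, with a median log2 fold change of 0.61. All 4 passed as higher with the block. Over all genes 12.0% were higher without the block and 20.7% with it. Nr1h2, which encodes the widely expressed receptor LXR beta, had 143, 122, 162, 120 and 140 CPM in GFP high and 116, 109, 123, 112 and 117 CPM in GFP low. The groups overlapped at their edges. Its log2 fold change was 0.25 ± 0.09 (edgeR adjusted p = 0.0584; with the block 0.25, adjusted p = 0.0100; 0.0100 to 0.279 over 17 alternatives), and it passed when GFP high library 2 (0.31, adjusted p = 0.0398) or 4 (0.31, adjusted p = 0.0324) was left out. Nr1h3, which encodes LXR alpha, the form typical of macrophages and liver, had only 11, 6, 8, 3 and 0 counts in GFP high libraries 1 to 5, against 0, 25, 6, 17 and 6. It was not kept by the filter on low counts, and without that filter it did not pass (log2 -0.91 ± 0.86, edgeR adjusted p = 0.494 among 26423 genes). Per kilobase of exon the LXR beta gene stood at 41.0 CPM per kb in GFP high and the LXR alpha gene at 0.169.

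Both exporters were higher in GFP high. Abcg1 (ENSMUSG00000024030, chromosome 17, 31057675 to 31117988), a transporter that passes sterol to lipoprotein particles, had 53.8, 49.8, 74.4, 96.2 and 80.3 CPM in GFP high and 29.98, 35.7, 29.7, 53.7 and 45.6 CPM in GFP low. Libraries 4 and 5 were the highest of GFP low and also the highest of GFP high, so the groups overlapped although each pair differed the same way. It was 1.82-fold higher (log2 0.86 ± 0.21, edgeR adjusted p = 0.00881). It did not pass without both libraries numbered 3 (0.76, adjusted p = 0.0538; 3.78e-05 to 0.0538 over 17 alternatives). Abca1 (ENSMUSG00000015243, chromosome 4, 53030787 to 53159895), which loads cholesterol onto lipid-poor apolipoprotein, had 35.3, 37.8, 32.3, 61.4 and 33.2 CPM in GFP high and 33.5, 19.2, 17.8, 29.6 and 27.5 CPM in GFP low. GFP high library 4 stood far above its group, and GFP low library 1 reached into it. The log2 fold change was 0.65 ± 0.22 (1.57-fold, edgeR adjusted p = 0.0429; with the block 0.64, adjusted p = 0.00339; 0.00339 to 0.0983 over 17 alternatives). Abca1 ceased to pass when GFP high library 2 (0.69, adjusted p = 0.0576) or 4 (0.45, adjusted p = 0.0983) was left out. The same held for GFP low library 2 (0.56, adjusted p = 0.0938), 3 (0.55, adjusted p = 0.0916) and 5 (0.68, adjusted p = 0.0565), for both libraries numbered 3 together (0.61, adjusted p = 0.0889), in libraries 1 to 3 alone (0.60, adjusted p = 0.0866) or in libraries 4 and 5 alone (0.72, adjusted p = 0.0589).

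Mylip, the ubiquitin ligase that marks lipoprotein receptors for breakdown and the only one of the 32 genes that acts on uptake, had 146, 240, 245, 145 and 109 CPM in GFP high and 127, 168, 142, 86.7 and 72.6 CPM in GFP low. Libraries 2 and 3 of GFP high stood highest, libraries 4 and 5 of GFP low stood lowest, and each pair was higher in GFP high. Its log2 fold change was 0.57 ± 0.26, which did not pass without the block (edgeR adjusted p = 0.125) and passed with it (0.57, adjusted p = 0.000148; 0.000148 to 0.273 over 17 alternatives) and in libraries 4 and 5 alone (0.66, adjusted p = 0.00870). Per kilobase of exon Mylip had the highest level of the 32 genes in GFP high, at 54.8 CPM per kb.

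Abca1, Abcg1 and LXR alpha are also abundant in macrophages, so markers of those cells were set beside them. Of 15 monocyte and macrophage markers 9 were tested, 2 were higher (Csf1r and Ly6c2), 1 lower (Cd163) and 6 did not pass (4 higher and 1 lower with the block), and their summed level was 89.5 to 137 CPM in GFP high and 53.4 to 98.8 CPM in GFP low. Csf1r, the receptor for the macrophage growth factor, had 26.1 ± 4.24 against 5.92 ± 1.81 CPM (log2 2.14 ± 0.22, edgeR adjusted p = 3.53e-05). The most abundant, Lyz2, had 67.9 ± 16.6 against 52.6 ± 17.6 CPM (log2 0.37 ± 0.22, edgeR adjusted p = 0.244; with the block 0.39, adjusted p = 0.00259). Adgre1, which defines mature macrophages, had 0 to 20 counts per library in GFP high against 2 to 22, Marco had 0 to 2 in both groups, and no marker of the list was at 0 in all libraries. Erythroid markers had summed levels of 16.6 to 46.8 CPM in GFP high and 7.84 to 22.4 CPM in GFP low, where Hbb-bs was the most abundant (15.4 ± 7.44 against 7.12 ± 3.24 CPM). The part of these cells in the values of Abca1, Abcg1 and Mylip was not tested.

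The trafficking and storage genes did not move as a block. Stard4 (ENSMUSG00000024378, chromosome 18, 33199355 to 33213862), a soluble sterol carrier whose gene is a known SREBP target, had 22.7, 18.4, 24.2, 24.8 and 20.3 CPM in GFP high and 25.9, 30.7, 32.2, 28.2 and 29.5 CPM in GFP low. The groups did not overlap, by a margin of about 1 CPM. It was 1.33-fold lower (log2 -0.41 ± 0.12, edgeR adjusted p = 0.0229), but passed in only 7 of 17 alternatives (0.0129 to 0.157). Leaving out any one of GFP high library 1, 2 or 5 or of GFP low library 2, 3 or 5 ended the call, with log2 fold changes from -0.40 to -0.33 in those 6 fits, as did leaving out both libraries numbered 3 (-0.41, adjusted p = 0.0631).

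The other 3 had values above 0 and did not pass. Npc1, the lysosomal membrane protein that exports cholesterol, had 10.2, 7.15, 6.73, 12.8 and 9.61 CPM in GFP high and 6.88, 5.87, 4.65, 9.12 and 7.58 CPM in GFP low, higher in 5 of 5 pairs (log2 0.45 ± 0.24, edgeR adjusted p = 0.190; with the block adjusted p = 0.0646). Npc2, the soluble lysosomal protein that hands sterol to NPC1, was far more abundant per kilobase of exon (24.8 against 0.822 CPM per kb in GFP high) and had a log2 fold change of 0.12 ± 0.10. Soat1, the enzyme that stores cholesterol as ester, had 29.9 to 44.8 CPM in GFP high and 26.3 to 40.9 CPM in GFP low (0.17 ± 0.14).

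Summed over genes, synthesis and efflux lay in opposite order in the 2 sorts. The 18 enzymes together had 115, 107, 94.5, 119 and 123 CPM per kb in GFP high libraries 1 to 5 and 135, 141, 139, 147 and 150 CPM per kb in GFP low. Abca1 and Abcg1 together had 10.8, 10.5, 13.3, 19.1 and 14.2 CPM per kb in GFP high and 7.34, 6.74, 5.79, 10.2 and 8.90 CPM per kb in GFP low. Neither sum overlapped between the groups, with means of 112 ± 11.2 against 142 ± 5.95 CPM per kb for the enzymes and 13.6 ± 3.48 against 7.80 ± 1.76 CPM per kb for the exporters (SD, n = 5). The 4 trafficking and storage genes summed to 29.6 to 39.2 and 30.7 to 33.3 CPM per kb, which overlapped. In each of the 5 pairs 13 or 14 of the 18 enzymes were lower in GFP high, and both exporters were higher. Some of the enzyme differences were very small, such as Msmo1 in pair 1 (log2 -0.0073). In the main fit 6021 of all 12772 genes tested lay below 0 and 6751 above, and no such share was taken by pair. These sums describe genes chosen with earlier results known and carry no test.

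**Figure D4:**
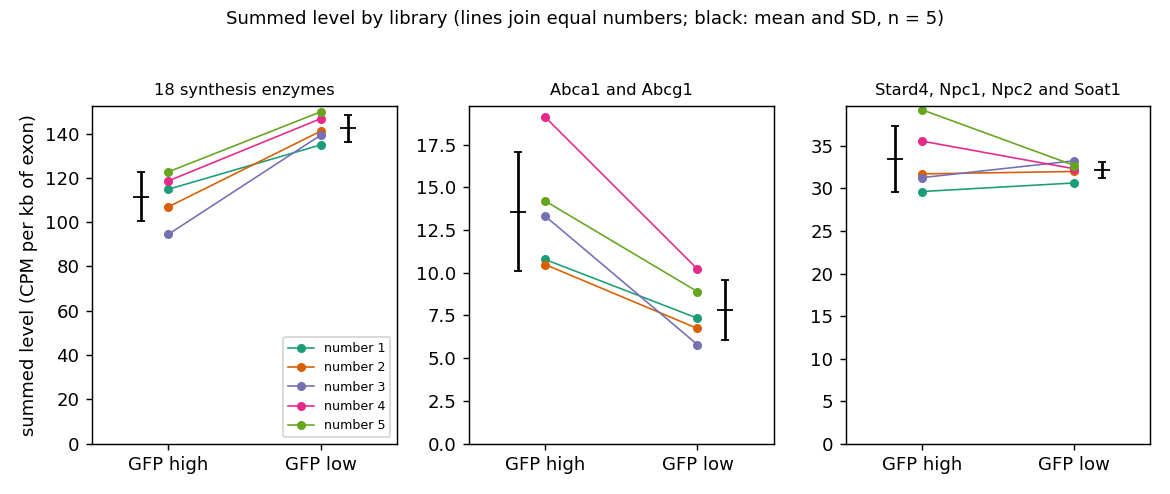
Summed level (CPM per kb of exon) by library for the 18 synthesis enzymes, for Abca1 with Abcg1, and for the 4 trafficking and storage genes; lines join libraries of the same number, black marks are the mean and SD (n = 5), and each axis starts at 0. All 5 lines rise toward GFP low for the enzymes and fall for the exporters.

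Further genes of the pathway were taken from lists of known membership. Of 14 other genes of isoprenoid and sterol synthesis 4 were lower, 0 higher and 10 did not pass (5 lower and 1 higher with the block), with a median log2 fold change of -0.11. The share called was 28.6%, near the 27.5% of all genes. Cyb5b, a cytochrome that can pass electrons to oxidases, fell by 0.55 ± 0.10 on the log2 scale (edgeR adjusted p = 0.00180), and Fntb, the beta subunit of the enzyme that attaches farnesyl groups to proteins, fell by 0.71 ± 0.16 (adjusted p = 0.00660). Of 11 other genes of SREBP and sterol sensing 2 were higher and 0 lower (3 and 1 with the block), 18.2% called, with a median of 0.05. They were Rnf139 (0.58 ± 0.10, adjusted p = 0.000976), a sterol-sensing ubiquitin ligase of the endoplasmic reticulum, and Erlin2 (0.57 ± 0.18, adjusted p = 0.0360), a cholesterol-binding protein of the same membrane.

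Fatty acid genes known as SREBP1 targets had 4 lower, 0 higher and 5 not past the threshold of 9 tested (4 lower and 1 higher with the block), against 15.4% of all genes lower, with a median of -0.14. The desaturase gene Fads1 had 35.5 to 43.7 CPM in GFP high and 69.4 to 87.9 CPM in GFP low (log2 -0.94 ± 0.09, edgeR adjusted p = 2.95e-05), and Acsl3, which activates fatty acids, fell by 0.75 ± 0.19 (adjusted p = 0.0123). The stearoyl-CoA desaturases, named after their values were seen, lay on opposite sides of 0. Scd2 had 39.8 to 75.4 CPM in GFP high and 72.7 to 118 CPM in GFP low and fell (-0.64 ± 0.19, adjusted p = 0.0238). Scd1, also a known LXR target, had 35.7 to 84.2 and 17.1 to 52.2 CPM (0.87 ± 0.32, adjusted p = 0.0601), while the block gave 0.93 (adjusted p = 0.000433).

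A list of other LXR partners and targets also holds further sterol transporters and receptors, and control of its genes by LXR was not tested. Of its 10 tested genes 1 was higher, 1 lower and 8 did not pass (3 higher and 1 lower with the block). The share called was below the 27.5% of all genes, and the median was 0.08. The transporter gene Abca7 rose by 0.43 ± 0.11 (edgeR adjusted p = 0.0121), and Scarb1, a lipoprotein receptor for selective sterol uptake, fell by 0.46 ± 0.11 (adjusted p = 0.00748). Among 22 other genes of uptake, trafficking and oxysterols 16 were tested, of which 2 were higher and 1 lower (5 and 1 with the block), 18.8% called, with a median of 0.15. Lrp8, a receptor of the lipoprotein receptor family, had 2 to 12 counts in GFP high against 26 to 62 (log2 -2.88 ± 0.50, adjusted p = 0.00117), and Gramd1b, which carries cholesterol from the plasma membrane to the endoplasmic reticulum, had 6.84 to 14.7 against 4.25 to 7.46 CPM (1.07 ± 0.26, adjusted p = 0.00876).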

How the data were processed

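The values deposited by the authors were whole-number read counts for each Ensembl gene, without normalization. Per the submitters' processing notes the build was mm10 and STAR, featureCounts and DESeq2 were used, with no role, version or setting. Strand use and multi-mapping are not given in the sources used here. Of values from 1 to 20, 68.4% were even, so single counts were not taken as independent molecules. GENCODE M21 (GRCm38) gave symbols for 99.8% of identifiers, positions and exon lengths (union of exons), and 11 of the 32 members share exon bases with another gene.

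The fit used edgeR 4.0.16 (R 4.3.3): filterByExpr, TMM, quasi-likelihood test of GFP high against GFP low without covariates, and Benjamini-Hochberg adjustment over 12772 genes at 0.05. Each SE of a log2 fold change was derived as its absolute value divided by the square root of the F statistic of that test. Groups came from titles. Deviations of equal-numbered libraries correlated at 0.248 to 0.353 (5 pairs, each above 0.1). For GFP high libraries 4 and 5 these were 0.349 and 0.353, against up to 0.292 and 0.321 with a GFP low library of another number. The labels do not state that equal numbers mark shared animals. The replicate number was therefore used as a block in an alternative fit and not in the main test. No libraries of a group agreed within sampling noise (lowest chi-square per gene 6.92). The members and lists were chosen with earlier results of these data known. All members are named, with the 2 genes of lowest p from each list of other pathway genes and the most abundant of each marker list. Csf1r, Ly6c2, Cd163, Adgre1, Marco, Cd8a, Gzma, Jchain, Scd1 and Scd2 were named outside this rule, with their values known. Alternatives were the replicate block, DESeq2 1.42.0, its size factors, no filter, leaving out each library or both numbered 3, and, chosen after seeing the data, libraries 1 to 3 or 4 and 5 alone.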

Additional observations from a re-analysis of the deposited data

Results flagged for a closer look

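In 3 of 62 groups of 5 libraries, 1 library lay far from the others of its group by Dixon's test, and chance flags about 1 in 20 groups. GFP low library 4 had the lowest Pmvk level, 13.3 CPM, where the next was 16.9 CPM. GFP low library 1 had the highest Fdft1 level, 48.8 CPM, where the next was 37.7 CPM. GFP high library 4 had the highest Abca1 level, 61.4 CPM, where the next was 37.8 CPM, and without it the log2 fold change of Abca1 was 0.45 (edgeR adjusted p = 0.0983; 0.00339 to 0.0983 over 17 alternatives).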

How the results depend on the processing

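All 9 called genes kept their direction in each of 17 alternatives, and Acat2, Cyp51, Idi1 and Scap also passed in each. With the replicate block 2645 genes were higher over all genes, 5 members were higher, 8 enzymes were lower and 4 genes of LXR, efflux, trafficking and storage were higher, and apart from Hmgcs1, Fdft1, Ebp, Nr1h2 and Mylip, which then passed, it changed no other member's call. Without both libraries numbered 3 there were 926 higher genes, 1 higher member, and 0 higher and 0 lower genes of LXR, efflux, trafficking and storage. That last group had 1 higher and 0 lower in libraries 1 to 3 alone, 0 lower in libraries 4 and 5 alone and 0 lower without the filter on low counts. With single libraries left out it had 1 to 2 higher and 0 to 1 lower, enzymes had 5 to 6 lower and 0 higher, and all genes 1189 to 1479 higher and 1617 to 1940 lower. Signs turned for 5 members, none of them called. In libraries 1 to 3 alone the values were Fdps (0.12), Tm7sf2 (-0.17), Dhcr7 (0.095) and Insig2 (0.26). Insig2 was 0.031 with the replicate block, 0.0048 by DESeq2, 0.0096 with DESeq2 size factors and 0.0095 without the filter. With single libraries left out Dhcr7 ranged from -0.091 to 0.043, Insig1 from -0.12 to 0.24 and Insig2 from -0.12 to 0.12. The cause of these shifts was not tested. Nr1h3, Fdps and Tm7sf2 rest on few counts per library.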
